A study of Mus musculus with 2 samples.

Results

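The amino acid transporters of the solute carrier (SLC) families SLC1, SLC3, SLC6, SLC7, SLC36, SLC38 and SLC43 were examined in MIN6 cells with and without overexpressed C2cd4a. Members were taken by gene symbol, as all genes of these 7 families whose symbol ends in the member number, which gave 61 of 27179 genes. MIN6 cells are insulin-secreting mouse insulinoma cells, widely used in place of primary beta cells. One group expressed C2cd4a-GFP, named for C2cd4a and green fluorescent protein (GFP), and the other expressed control-GFP. By the infection protocol, adenovirus was given at a multiplicity of 100 with 8 μg/ml polybrene, and RNA was isolated after 72 to 96 h. That protocol reads the same for either sample and mentions only the C2cd4a-GFP virus, so each group was taken from its title and the control construct is not described further. There was 1 library of 1 cell line per group, so the spread between cultures was not measured and no replicate test could be made.

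SLC carriers move amino acids across the plasma membrane and the lysosomal membrane, each with its own substrates and driving ions. Members of SLC7 work either as light chains bound to a glycoprotein heavy chain of SLC3 or, for the cationic carriers, on their own. In beta cells, cationic amino acids such as arginine depolarise the membrane as they enter, glutamine and leucine feed oxidative metabolism, and cystine uptake supplies glutathione. Several of these carriers are known targets of ATF4, the transcription factor of the amino acid response.

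The libraries held 30164106 counts (C2cd4a-GFP) and 31039999 counts (control-GFP). Counts were scaled by TMM factors and given relative to library size (CPM). Levels of different genes were compared as CPM per kb of exon. The range of CPM over the members and the shares of SLC38 counts are exceptions, which also follow exon length. C2cd4a itself had 49238 counts with C2cd4a-GFP and 133 with control-GFP. All 9 beta-cell markers looked for were above 1 CPM, with Ins2 at 57072 CPM with C2cd4a-GFP and 65490 CPM with control-GFP, while 4 exocrine markers had 0 counts in both. Gcg, the glucagon gene of alpha cells, stood at 74.9 CPM with C2cd4a-GFP and 49.4 CPM with control-GFP. The 7 markers of other islet cells summed to 80.7 CPM with C2cd4a-GFP and 53.9 CPM with control-GFP, most of it Gcg. Of the beta-cell markers, Ins1 and Slc2a2 were lower (log2 ratios -0.91 and -0.77). The part of these marker differences in the results below was not tested.

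Of the 61 members, 32 reached a mean of 1 CPM and are called measured here. Another 29 lay below it, with at most 27 counts in the C2cd4a-GFP library and at most 31 in the control-GFP library. Of those 29, 6 had no count in either (0 counts, an upper limit of 0.098 CPM). As the plot of levels shows, measured members spanned from Slc3a1, at 1.93 CPM with C2cd4a-GFP and 2.06 CPM with control-GFP, to Slc7a5, at 669 CPM with C2cd4a-GFP and 636 CPM with control-GFP.

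**Figure D1:**
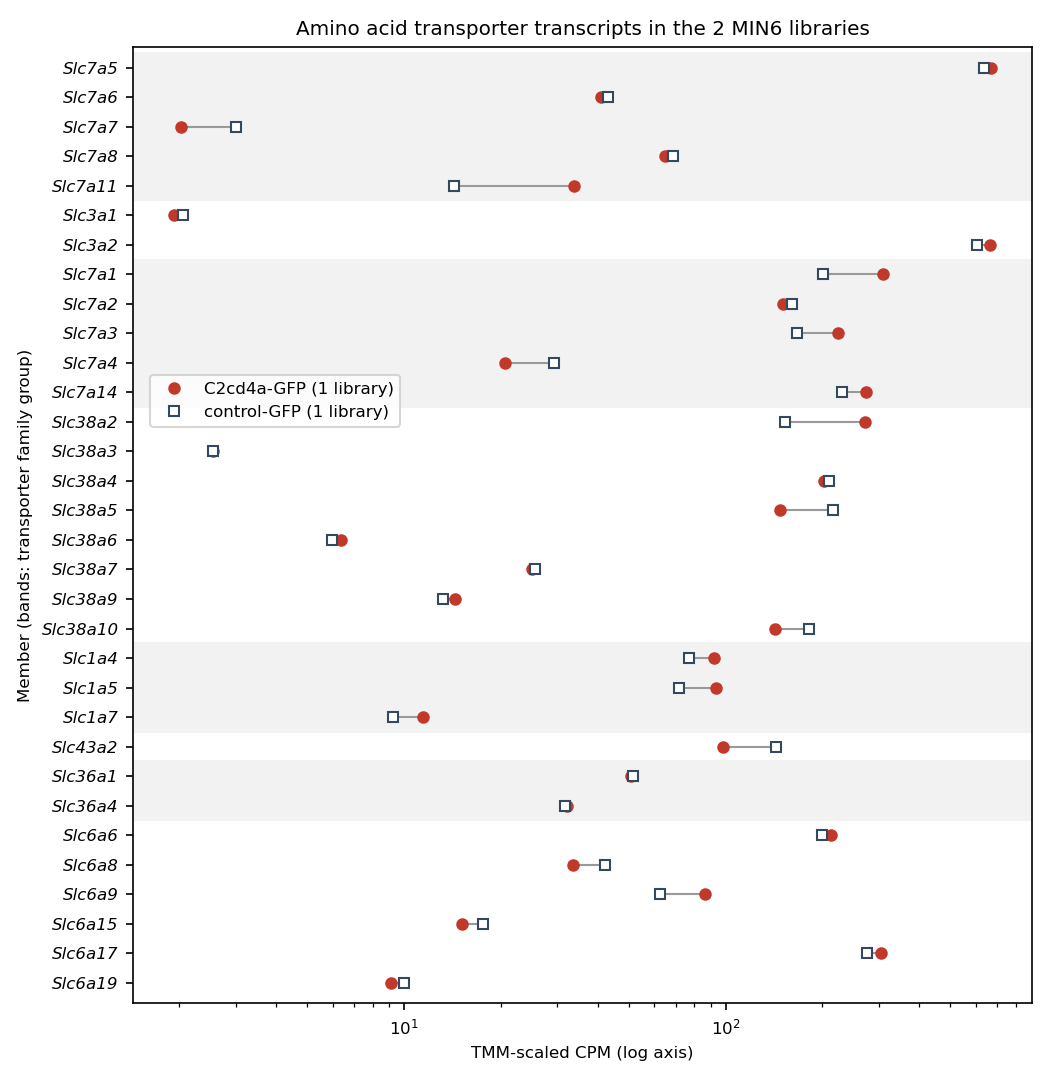
TMM-scaled CPM (log axis) of the 32 measured members in the C2cd4a-GFP library (filled circles) and the control-GFP library (open squares), 1 library each, with bands for the family groups. The widest gaps are seen for Slc7a11, at 33.8 CPM with C2cd4a-GFP and 14.3 CPM with control-GFP, and for Slc38a2, at 271 CPM and 153 CPM in the same order.

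A few members were higher, while the families as a whole were centred on equal levels. The ratio of C2cd4a-GFP over control-GFP was above 1 for 16 measured members and below 1 for 16, with a median log2 ratio of 0.01, against -0.01 over all 12759 genes of at least 1 CPM. In bulk RNA a different number of cells making a transcript and a different amount per cell cannot be told apart. Ratios carry a 95% exact counting interval, which leaves out variation between cultures. A size rule asked for a ratio of at least 1.5 with an interval excluding equality. By that rule 3 of 32 members (9.38%) were higher, namely Slc7a11, Slc38a2 and Slc7a1, against 4.23% of all measured genes. None of the 32 met the rule downward, against 4.23% of all measured genes. The counting interval alone lay above equality for 13 of 32 members (40.6%), against 30.6% of all measured genes, and below it for 8 of 32, against 33.0%.

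The authors' deposited table gives log2 fold changes with DESeq2 adjusted p-values, and here rose and fell mean that this adjusted p was below 0.05. By the authors' deposited table, 7 of the 38 members with an adjusted p rose (18.4%), against 7.0% of all genes tested there. These were Slc7a11, Slc38a2, Slc7a1, Slc6a9, Slc1a5, Slc7a3 and Slc1a4. Of the 38, 2 fell in the authors' deposited table (5.26%), Slc38a5 and Slc43a2, against 6.58% of all genes. The other 29 with an adjusted p are said to have no call, and 23 members had no adjusted p. No source used here says how many libraries the authors' values rest on. They may include these 2 libraries, so they are no independent repeat of the ratios.

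For comparison, 284 further genes with Slc symbols of other families or suffixes were counted. Of these, 166 were measured, 7 met the size rule upward and 14 downward, and their median log2 ratio was -0.04. The authors' deposited table has 15 of 183 of them rising and 19 falling. The difference between those counts and the members' counts was not tested.

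**Figure D2:**
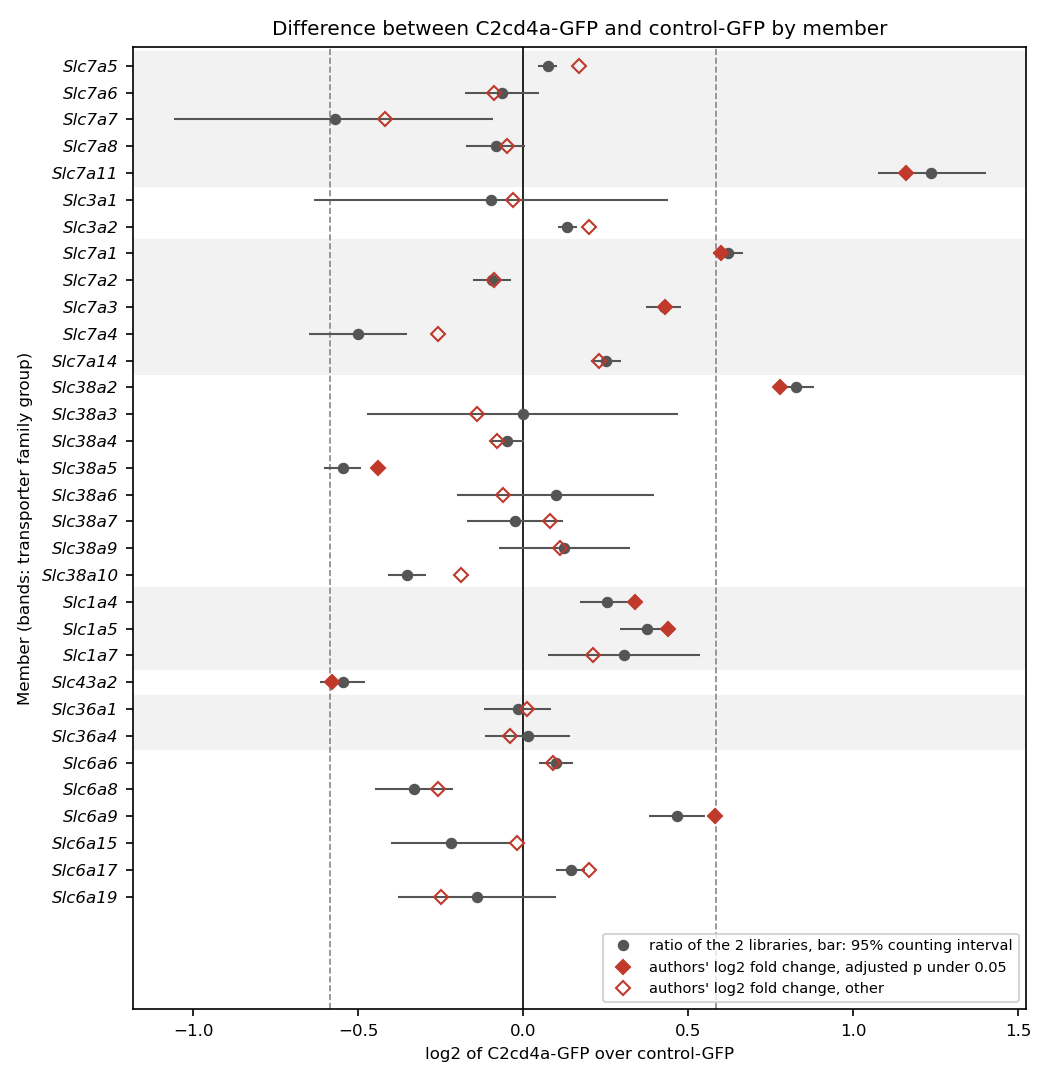
Log2 ratio of C2cd4a-GFP over control-GFP for the 32 measured members (grey circles, bars: 95% counting interval) and the authors' log2 fold change (red diamonds, filled where the adjusted p is under 0.05). Dashed lines mark the 1.5-fold size rule. Slc7a11 stands farthest to the right at 1.24, and Slc7a7, Slc38a5 and Slc43a2 lie farthest to the left, between -0.57 and -0.55.

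Among the light chains, the cystine carrier stood out. Slc7a11 (xCT; gene ID 26570, mm10 chromosome 3, 50364936 to 50443613, minus strand) brings in cystine in exchange for glutamate. It had 1034 counts with C2cd4a-GFP and 438 with control-GFP, or 33.8 and 14.3 CPM in that order. The level in the C2cd4a-GFP library was 2.36-fold that of the control-GFP library, a log2 ratio of 1.24 (1.07 to 1.40). In the authors' deposited table Slc7a11 rose (log2 fold change 1.16, DESeq2 adjusted p = 4.36e-14), with normalized values of 919 for C2cd4a-GFP and 412 for control-GFP. At an exon length of 9227 bases and a GC content of 40.7%, Slc7a11 belongs to the long, AT-rich genes, whose ratios ran higher over all genes. Once trends with length and GC content were removed its log2 ratio was 0.78, or 0.98 without the length trend alone, and the size rule was still met.

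The Slc7a11 promoter window is shown because it holds a motif of the amino acid response. The window (RefSeq, GRCm38.p6, chr3:50443564-50443863, minus strand, from 250 bases before the start of transcription to 50 after) is written 5′ to 3′. Capitals mark matches to TGATGNAA, the core of the C/EBP-ATF element that ATF4 binds, searched on both strands.

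Slc7a11: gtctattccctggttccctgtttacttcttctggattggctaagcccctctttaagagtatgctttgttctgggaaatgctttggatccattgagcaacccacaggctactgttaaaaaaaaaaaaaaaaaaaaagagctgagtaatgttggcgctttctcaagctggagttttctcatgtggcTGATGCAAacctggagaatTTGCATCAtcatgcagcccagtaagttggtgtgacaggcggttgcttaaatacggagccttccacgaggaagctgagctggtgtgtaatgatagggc

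The motif occurs in it as TGATGCAA, beginning 66 bases before the start, and again in the opposite orientation as TTGCATCA, beginning 47 bases before it. Windows were found for 23 of the 32 measured members, several with more than 1 start. Of the 7 members that rose in the authors' deposited table, 5 had a window, and the motif was present for Slc7a11 and Slc1a4. Among the 18 other measured members with a window it was present for Slc7a7 alone, whose log2 ratio was -0.57 with no call. A window of Slc7a7 holds 2 matches, TGATGAAA and TGATGCAA, while others of its windows hold none. Of all 32851 windows of that length, 3.97% hold it, or 4.51% of genes with a window. A match is a description of letters and not of a bound site.

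The other light chains were close to equality or scarce. Slc7a5 (LAT1), the main carrier of large neutral amino acids such as leucine, was the leading light chain. It had 20489 counts with C2cd4a-GFP and 19445 with control-GFP, a log2 ratio of 0.07 (0.05 to 0.10), and had no call in the authors' deposited table (0.17, DESeq2 adjusted p = 0.335). Slc7a8 (LAT2), a light chain for neutral amino acids, had 64.6 CPM with C2cd4a-GFP and 68.4 CPM with control-GFP. Slc7a6, which exchanges cationic for neutral amino acids, had 1258 counts with C2cd4a-GFP and 1314 with control-GFP. The intervals of Slc7a8 and Slc7a6 held equality.

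Slc7a7, a close relative of Slc7a6 with the same exchange, had 62 counts with C2cd4a-GFP and 92 with control-GFP. Its log2 ratio of -0.57 (-1.06 to -0.09) lay just short of the size rule, which lies at 0.585 either way, and met it under upper quartile scaling (-0.59). In the authors' deposited table Slc7a7 had a log2 fold change of -0.42 with no call (DESeq2 adjusted p = 0.187). Its gene overlaps Oxa1l on the opposite strand, which had 1651 and 1863 counts in the C2cd4a-GFP and control-GFP libraries. No source used here says that reads were counted by strand, so reads of these partners may be mixed. Slc7a9, Slc7a10, Slc7a12, Slc7a13 and Slc7a15 had at most 4 counts in either library.

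The heavy chains that carry these light chains to the surface hardly differed. Slc3a2 (4F2hc, CD98), which pairs with Slc7a5, Slc7a6, Slc7a7, Slc7a8, Slc7a10 and Slc7a11, had 20334 counts with C2cd4a-GFP and 18521 with control-GFP. Its log2 ratio was 0.13 (0.10 to 0.16). It had no call in the authors' deposited table (0.20, DESeq2 adjusted p = 0.206). Slc3a2 was the most abundant member per exon length, at 225 CPM per kb with C2cd4a-GFP and 205 CPM per kb with control-GFP. Slc7a5 came next, at 190 and 181 CPM per kb in that order. Slc3a2 and Slc7a5 together made up 37.8% of the members' summed CPM per kb with C2cd4a-GFP and 37.4% with control-GFP.

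The summed light chains that pair with Slc3a2 came to 222 CPM per kb with C2cd4a-GFP and 212 CPM per kb with control-GFP. Light over heavy chain was thus 0.989 with C2cd4a-GFP and 1.04 with control-GFP. Slc7a11 was a small part of these light chains, 1.65% with C2cd4a-GFP and 0.731% with control-GFP, while Slc7a5 held 85.8% and 85.3% in that order. Slc3a1 (rBAT), the heavy chain of the cystine and dibasic amino acid system of kidney, had 59 counts with C2cd4a-GFP and 63 with control-GFP, and its gene overlaps Prepl on the opposite strand.

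The cationic carriers were higher as a sum, through some of their members. Together they had 977 CPM with C2cd4a-GFP and 787 CPM with control-GFP, a log2 ratio of 0.31 (0.29 to 0.34). This sum includes the relatives Slc7a4 and Slc7a14, of which Slc7a14 held 28.0% of the counts with C2cd4a-GFP and 29.2% with control-GFP. The sum was not recomputed without length and GC trends. Removing both lowered the log2 ratios of Slc7a1, Slc7a2 and Slc7a14 and raised those of Slc7a3 and Slc7a4. Slc7a1 (CAT1; gene ID 11987, mm10 chromosome 5, 148327410 to 148399904), the widespread arginine and lysine carrier, had 9430 counts with C2cd4a-GFP and 6125 with control-GFP. Its log2 ratio was 0.62 (0.57 to 0.67), and it rose in the authors' deposited table (0.60, DESeq2 adjusted p = 0.000669). The 1.54-fold ratio lay just above the size rule. Slc7a1, with an exon length of 7179 bases, no longer met the rule when the length trend was removed (0.42) or length and GC content together (0.45).

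Slc7a3 (CAT3), another arginine carrier, had 6864 counts with C2cd4a-GFP and 5105 with control-GFP, a log2 ratio of 0.43 (0.37 to 0.48). It rose in the authors' deposited table (0.43, DESeq2 adjusted p = 0.000118), and it kept a log2 ratio of 0.44 without the trends. Per exon length Slc7a3 was the leading cationic carrier, at 94.6 CPM per kb with C2cd4a-GFP and 70.4 CPM per kb with control-GFP, above Slc7a1 at 42.9 and 27.9 CPM per kb.

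Slc7a2 (CAT2) lay slightly the other way, with 4617 counts with C2cd4a-GFP and 4927 with control-GFP (log2 ratio -0.10, -0.15 to -0.04). Its log2 ratio was -0.45 without length and GC trends, and -0.32 without the length trend alone. Slc7a4, a relative for which no arginine transport is established, had 633 counts with C2cd4a-GFP and 894 with control-GFP (-0.50, -0.65 to -0.35). In the authors' deposited table Slc7a4 stood at -0.26 with no call (DESeq2 adjusted p = 0.260). Slc7a14, a relative found in intracellular vesicles, had 8368 counts with C2cd4a-GFP and 7025 with control-GFP (0.25, 0.20 to 0.30). It had no call in the authors' deposited table (0.23, DESeq2 adjusted p = 0.279), and its ratio was near equality (-0.07) without the trends.

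A promoter window of Slc7a1 (chr5:148399855-148400154, minus strand) is given with that of Slc38a2 (chr15:96699679-96699978, minus strand), since both met the size rule without a C/EBP-ATF match there. Capitals mark a match to TGACNNNGC, the core of the antioxidant response element, on either strand.

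Slc7a1: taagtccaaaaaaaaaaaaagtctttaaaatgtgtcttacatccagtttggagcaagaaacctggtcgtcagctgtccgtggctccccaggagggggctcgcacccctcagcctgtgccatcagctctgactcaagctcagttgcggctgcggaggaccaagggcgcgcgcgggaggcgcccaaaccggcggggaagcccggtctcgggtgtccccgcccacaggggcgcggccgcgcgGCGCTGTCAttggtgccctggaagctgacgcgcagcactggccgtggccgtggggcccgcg
Slc38a2: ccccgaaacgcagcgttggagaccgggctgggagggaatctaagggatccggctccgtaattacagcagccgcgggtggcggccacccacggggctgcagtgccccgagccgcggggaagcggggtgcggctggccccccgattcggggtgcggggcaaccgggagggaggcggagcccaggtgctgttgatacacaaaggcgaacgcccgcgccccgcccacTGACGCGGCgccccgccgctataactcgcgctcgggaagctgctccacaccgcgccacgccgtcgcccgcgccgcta

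The match begins 11 bases before the start in Slc7a1 (GCGCTGTCA, the opposite orientation) and 27 bases before it in Slc38a2 (TGACGCGGC). This short motif is common. It was present in 12.4% of all windows, or for 14.0% of all genes with a window. Of the 5 members with a window that rose in the authors' deposited table it was present for 3 (Slc38a2, Slc7a1 and Slc6a9), and of the 18 other measured members with a window for 2 (Slc36a1 and Slc7a6). A gene with several windows was counted if any of them held the match. Slc7a1 (chr5:148392766-148393065) and Slc6a9 (chr4:117835008-117835307) also have a window without a match. The Slc7a11 window holds no match to this motif.

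In SLC38, the sodium-coupled neutral amino acid carriers, Slc38a2 was higher and Slc38a5 lower, while the summed counts of the family were level. They came to 24915 with C2cd4a-GFP and 24734 with control-GFP, a log2 ratio of 0.01 (-0.02 to 0.03). Summed per exon length the family had 229 CPM per kb with C2cd4a-GFP and 249 CPM per kb with control-GFP. Slc38a2 (SNAT2; gene ID 67760, mm10 chromosome 15, 96687392 to 96699698), which takes up glutamine and alanine and is induced when amino acids are short, had 8307 counts with C2cd4a-GFP and 4673 with control-GFP. Its log2 ratio was 0.83 (0.78 to 0.88), a 1.78-fold difference. Slc38a2 rose in the authors' deposited table (0.78, DESeq2 adjusted p = 2.27e-12).

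Slc38a5 (SNAT5), which carries glutamine, asparagine and histidine in exchange for protons, went the other way. It had 4531 counts with C2cd4a-GFP and 6616 with control-GFP, a log2 ratio of -0.55 (-0.60 to -0.49), and fell in the authors' deposited table (-0.44, DESeq2 adjusted p = 0.0044). The ratio missed the size rule, as the control-GFP level was 1.46-fold higher. Slc38a10, a widely expressed member, had 142 CPM with C2cd4a-GFP and 181 CPM with control-GFP (-0.35, -0.41 to -0.29), and in the authors' deposited table it had no call (-0.19, DESeq2 adjusted p = 0.301).

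In share of the SLC38 counts, Slc38a2 held 33.3% with C2cd4a-GFP and 18.9% with control-GFP, and Slc38a5 18.2% and 26.7% in that order. In share of the summed CPM per kb, Slc38a2 held 25.6% and 13.3%, and Slc38a5 34.8% and 46.8%, in the same order. Per exon length the order of the family was another in each library. In the C2cd4a-GFP library Slc38a5 led with 79.7 CPM per kb, before Slc38a2 with 58.6 and Slc38a4 with 51.6. In the control-GFP library Slc38a5 had 117 CPM per kb, Slc38a4 53.4, Slc38a10 33.5 and Slc38a2 33.0.

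Slc38a4 (SNAT4), which also carries cationic amino acids, had 203 CPM with C2cd4a-GFP and 210 CPM with control-GFP. Its log2 ratio was near equality with the trends kept (-0.05) and -0.27 with length and GC trends removed. Slc38a2 lies between Slc38a1 and Slc38a4 on chromosome 15, at gaps of 44479 and 295125 bases. Slc38a1 (SNAT1), the other member of that cluster, had 9 counts with C2cd4a-GFP and 4 with control-GFP, and its interval held equality. Slc38a9, a lysosomal arginine sensor upstream of mTORC1, had 440 counts with C2cd4a-GFP and 403 with control-GFP (0.13, -0.07 to 0.32). Slc38a7, a lysosomal glutamine carrier, had 25.1 CPM with C2cd4a-GFP and 25.5 CPM with control-GFP. Slc38a6 had 195 counts with C2cd4a-GFP and 182 with control-GFP, or 6.37 and 5.95 CPM in that order (0.10, -0.20 to 0.40). Slc38a3, with 78 counts in either library, also held equality within its interval, and Slc38a8 and Slc38a11 were below 1 CPM.

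**Figure D3:**
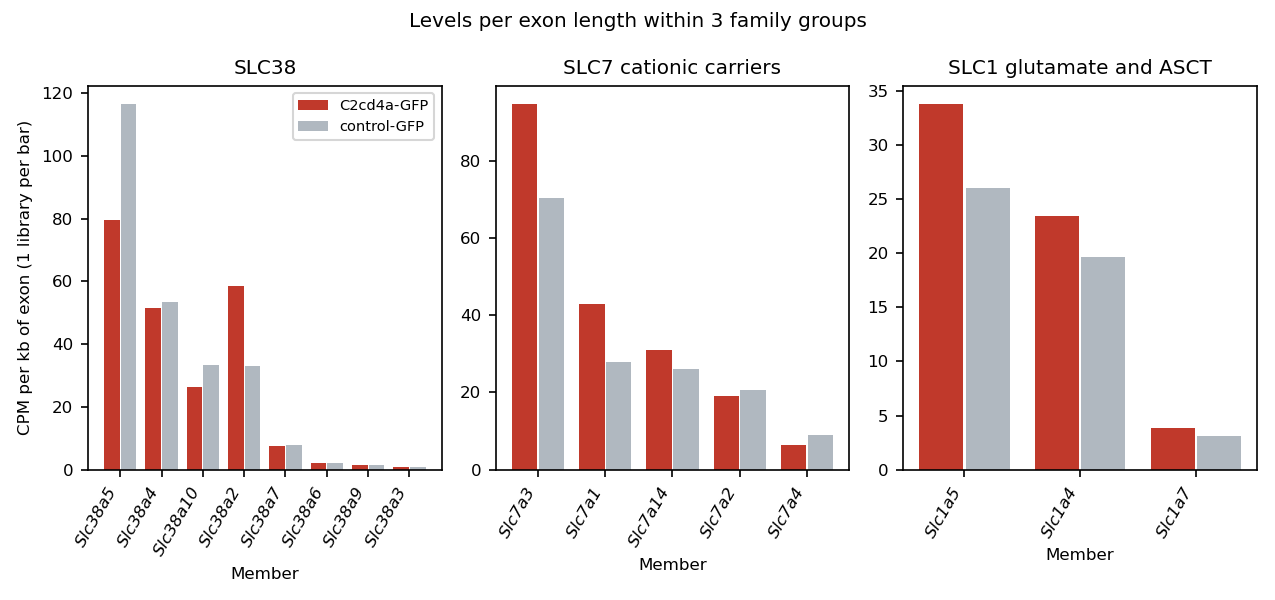
CPM per kb of exon of the measured members of SLC38, the cationic carriers of SLC7 and SLC1 (bars from 0; red: C2cd4a-GFP; grey: control-GFP; 1 library each; each panel has its own scale). Slc38a2 is higher and Slc38a5 lower in the C2cd4a-GFP library, at 58.6 and 79.7 CPM per kb, against 33.0 and 117 CPM per kb in the control-GFP library.

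The 3 measured members of SLC1 had intervals above equality, as had 30.6% of all measured genes. SLC1 joins the high-affinity glutamate carriers with the alanine, serine and cysteine exchangers Slc1a4 (ASCT1) and Slc1a5 (ASCT2), of which Slc1a5 also carries glutamine. Slc1a5 had 2849 counts with C2cd4a-GFP and 2195 with control-GFP, a log2 ratio of 0.37 (0.29 to 0.46). By the authors' deposited table Slc1a5 rose (0.44, DESeq2 adjusted p = 0.000246). Slc1a4 had 2816 counts with C2cd4a-GFP and 2361 with control-GFP, a log2 ratio of 0.25 (0.17 to 0.33), and by the authors' deposited table it rose too (0.34, DESeq2 adjusted p = 0.0204). Of the 7 that rose, Slc1a4 alone did not pass at an adjusted p of 0.01.

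The Slc1a4 window (chr11:20332664-20332963, minus strand) is shown as that of the other member that holds the C/EBP-ATF core and rose in the authors' deposited table. The core, in capitals, is in the opposite orientation and begins 4 bases before the start.

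Slc1a4: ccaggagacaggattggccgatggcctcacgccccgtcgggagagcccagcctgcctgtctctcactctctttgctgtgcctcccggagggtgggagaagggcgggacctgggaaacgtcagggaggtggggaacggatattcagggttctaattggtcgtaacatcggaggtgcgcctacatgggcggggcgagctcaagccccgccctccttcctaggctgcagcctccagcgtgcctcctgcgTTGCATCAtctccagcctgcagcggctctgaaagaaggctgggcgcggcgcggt

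Of the glutamate carriers, Slc1a7 (EAAT5) was measured, with 350 counts with C2cd4a-GFP and 283 with control-GFP (0.30, 0.07 to 0.54). It had no call in the authors' deposited table (0.21, DESeq2 adjusted p = 0.318). Slc1a1, Slc1a2, Slc1a3 and Slc1a6 had at most 9 counts in either library, so differences in them were not detectable at this depth.

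Slc43a2 (LAT4; gene ID 215113, mm10 chromosome 11, 75531694 to 75577572) is a facilitated carrier of branched-chain amino acids and phenylalanine, and was lower. It had 3013 counts with C2cd4a-GFP and 4399 with control-GFP, a log2 ratio of -0.55 (-0.61 to -0.48). Slc43a2 fell in the authors' deposited table (-0.58, DESeq2 adjusted p = 0.000333). Its exon length is 7232 bases, and without the length trend its log2 ratio was -0.75, past the size rule. Slc43a1 and Slc43a3 had at most 2 counts in either library.

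The proton-coupled carriers of SLC36, which act largely on lysosomes, had both measured members close to equality. Slc36a1 (PAT1) had 1557 counts with C2cd4a-GFP and 1573 with control-GFP (-0.02, -0.12 to 0.09). Slc36a4 (PAT4) had 980 counts with C2cd4a-GFP and 970 with control-GFP (0.01, -0.12 to 0.14). These intervals allow differences of up to 0.14 on the log2 scale from counting error. Slc36a2 and Slc36a3, which adjoin Slc36a1 on chromosome 11, had at most 1 count.

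SLC6, the sodium- and chloride-coupled family that includes the neurotransmitter carriers, had 6 of 19 members measured. Slc6a9 (GlyT1), the glycine carrier, had 2645 counts with C2cd4a-GFP and 1912 with control-GFP, a log2 ratio of 0.47 (0.38 to 0.55). Slc6a9 rose in the authors' deposited table (0.58, DESeq2 adjusted p = 2.44e-05). With length and GC trends removed its log2 ratio was 0.59 and met the size rule.

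Slc6a17 (NTT4), a vesicular carrier of neutral amino acids, was the leading SLC6 member per exon length, at 48.3 CPM per kb with C2cd4a-GFP and 43.7 CPM per kb with control-GFP (log2 ratio 0.14, 0.10 to 0.19). The taurine carrier Slc6a6 had 34.5 CPM per kb with C2cd4a-GFP and 32.2 CPM per kb with control-GFP (0.10, 0.05 to 0.15). Neither of these had a call in the authors' deposited table (DESeq2 adjusted p = 0.229 and 0.733).

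The creatine carrier Slc6a8 had 1026 counts with C2cd4a-GFP and 1289 with control-GFP (-0.33, -0.45 to -0.21). It narrowly missed in the authors' deposited table (-0.26, DESeq2 adjusted p = 0.055). Slc6a15, a carrier of branched-chain amino acids and proline, had 464 counts with C2cd4a-GFP and 539 with control-GFP (-0.22, -0.40 to -0.04). Without length and GC trends the log2 ratio of Slc6a15 was -0.44. Slc6a19, the neutral amino acid carrier of kidney and gut, had 278 counts with C2cd4a-GFP and 306 with control-GFP, with an interval that held equality. The other 13 SLC6 members, among them the carriers of GABA, noradrenaline, dopamine and serotonin, were below 1 CPM.

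The length and base composition of a gene moved with the ratio of the 2 libraries. Across genes, which are not independent replicates, the ratio had a Spearman's rho of 0.332 with exon length over 12759 genes and of -0.461 with GC content over 12358. Measured members had a median exon length of 3687 bases and a median GC content of 52.5%, against 2877 bases and 49.8% over all measured genes with a value. After both trends were removed, Slc7a11, Slc38a2 (0.61) and Slc6a9 met the size rule upward and Slc43a2 (-0.67) downward. The removal of both trends moved 15 of the 32 measured members out of their counting interval. All 9 members called in the authors' deposited table kept their direction in this setting.

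**Figure D4:**
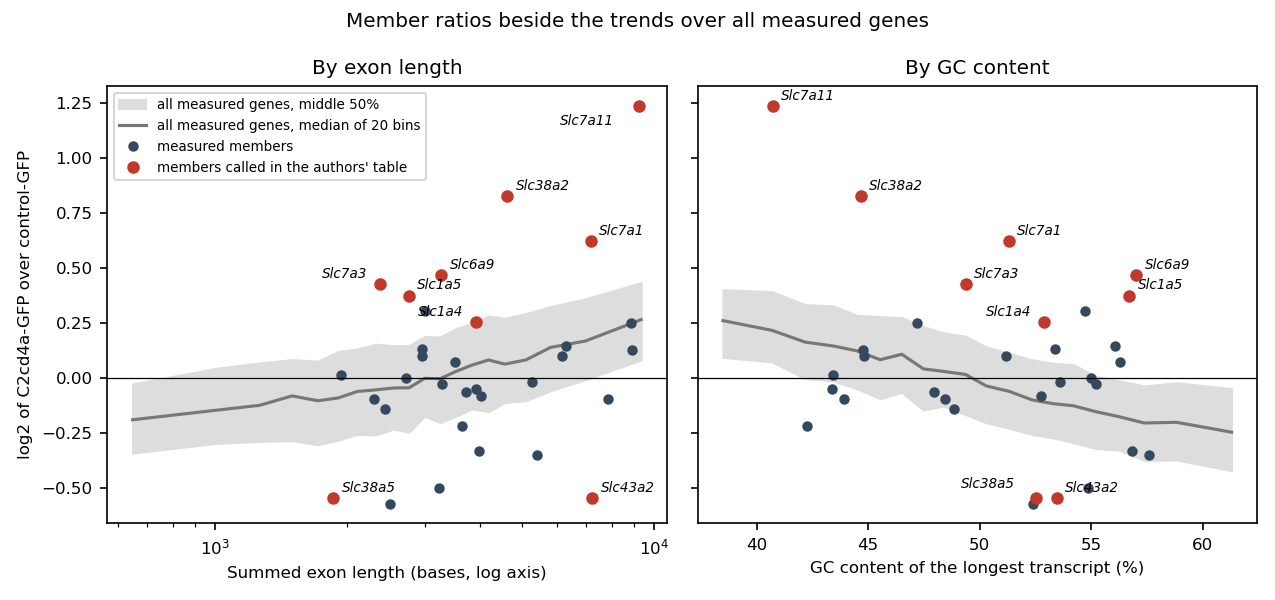
Log2 ratio of C2cd4a-GFP over control-GFP of the measured members (points; red and named where called in the authors' deposited table) against exon length (log axis) and GC content. The line and band give the median and the middle 50% of all measured genes in 20 bins of equal size. Slc7a11 lies at the long, low-GC end, where the line is high, and still stands above the band at 1.24.

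Genes outside these families were counted from lists drawn up with earlier results of these data known. Of 32 genes of ATF4 and the amino acid response, 16 rose and 0 fell by the authors' deposited table, against 7.0% and 6.58% of all genes. Their median log2 ratio was 0.24 over 31 measured genes. Of these, 2 met the size rule. Stc2, a secreted glycoprotein, was at 48.1 CPM with C2cd4a-GFP and 14.9 CPM with control-GFP (1.69), and Cebpg, a dimer partner of ATF4, at 222 CPM and 139 CPM in that order (0.67). With length and GC trends removed Stc2 still met the rule (1.78) and Cebpg did not (0.42). Atf4 itself had a log2 ratio of 0.20 (0.18 to 0.23). It had no call in the authors' deposited table (0.21, DESeq2 adjusted p = 0.097).

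Among genes that turn over amino acids in the beta cell, 4 of 19 rose and 0 fell by the authors' deposited table, and the median log2 ratio was 0.10 over 18 measured genes. Among those that rose were the branched-chain aminotransferase Bcat1 (0.76) and the aminotransferases Got1 (0.35) and Gpt2 (0.34), with the log2 fold change of the authors' deposited table in brackets. Bcat1 met the size rule, with 410 counts with C2cd4a-GFP and 236 with control-GFP (log2 ratio 0.80), but not once length and GC trends were removed (0.50).

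The cystine and glutathione list had a median log2 ratio of 0.05 over 14 measured genes. Of 15 genes with an adjusted p, 0 rose and 2 fell by the authors' deposited table, namely Keap1, which holds NRF2 in check (-0.31), and Srxn1, a sulfiredoxin (-0.27). Gpx1 and Gpx4, glutathione peroxidases and the most abundant per exon length, had log2 ratios of -0.28 and -0.26. In the authors' deposited table they stood at -0.02 and -0.01 with no call (DESeq2 adjusted p = 0.960 and 0.982), and without length and GC trends Gpx4 had a log2 ratio of 0.03 and Gpx1 lay within 0.01 of equality.

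For mTORC1 amino acid sensing, 2 of 33 genes rose and 1 fell by the authors' deposited table, with a median log2 ratio of 0.08 over 32 measured genes. The 3 are Fnip1, a partner of folliculin (0.52), the Rag GTPase gene Rragb (0.46), and Sesn1, a sestrin (-0.41). By the mean of both libraries the most abundant per exon length were Sesn2, a leucine sensor (log2 ratio 0.18), and Sec13, a subunit of GATOR2 (-0.02).

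Of the other amino acid carriers outside the 7 families, including vesicular and mitochondrial ones, 0 of 18 rose and 1 fell by the authors' deposited table, the lysosomal sialic acid and acidic amino acid carrier Slc17a5 (-0.40). The vesicular glutamate carrier Slc17a7 was the only one of 17 measured to meet the size rule. It had 112 counts with C2cd4a-GFP and 192 with control-GFP (-0.78, -1.13 to -0.44), with -0.38 and a DESeq2 adjusted p of 0.191 in the authors' deposited table. Genes named here by a call in the authors' table alone were chosen after their values were seen.

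**Figure D5:**
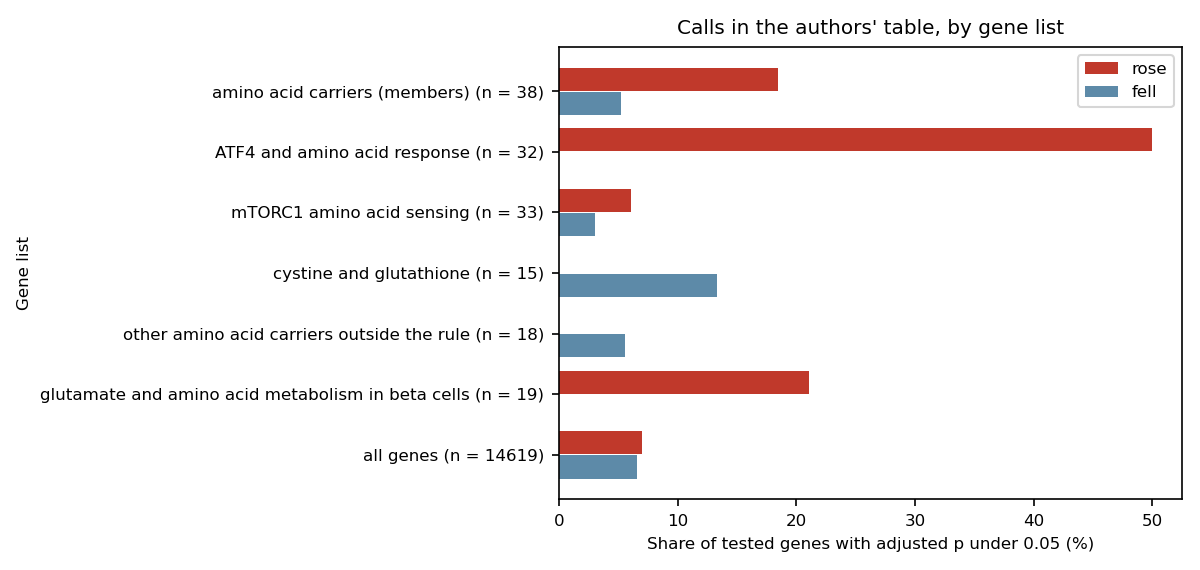
Share of each gene list called in the authors' deposited table (x axis, % of the listed genes that have an adjusted p, whose number is in brackets), with rising genes in red and falling genes in blue. The 38 members with an adjusted p had 18.4% rising and 5.26% falling, and the ATF4 list 16 and 0 of 32 genes, against 7.0% and 6.58% of all genes. Members and lists were chosen with earlier results of these data known.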

How the data were processed

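RNA was measured in 1 library of MIN6 cells expressing C2cd4a-GFP and 1 expressing control-GFP. Libraries were directional, poly-A selected and read as 42 bp paired ends, per the labels' protocols. The submitters' processing notes list STAR 2.5.2b, Subread 1.5.2 with featureCounts, DESeq2 1.14.1 and mm10, but not what each did. The authors deposited whole-number counts per gene with exon coordinates and summed exon length. Beside them the authors deposited a log2 fold change, a p-value and an adjusted p-value, and a further table of rounded normalized values (treated as a score), 1 per condition. No source used here says how many libraries these values rest on.

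Counts of 27179 genes were scaled with TMM in edgeR 4.0.16 (factors 1.02 and 0.985) under R 4.3.3. Ratios carry exact Clopper-Pearson 95% intervals conditional on the summed counts, and a 0 allows 3 counts. Molecular identifiers are not mentioned, so these bounds reflect counting error alone. With 1 library per group no p-value was computed. Length and GC trends were lowess curves (span 0.3, statsmodels 0.14.6), with GC content from the longest GENCODE M21 transcript of each symbol. Calculations were tested on simulated counts. Promoter windows came from RefSeq (GRCm38.p6) and matched 43 of 61 members by symbol.

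Every member is accounted for. Values are given for those above 5 CPM, meeting the size rule or passing in the authors' table. From each other list, up to 4 genes meeting the size rule are named, or the 2 most abundant. Castor1, Castor2 and Slc66a1 were not matched by symbol. Chac1 stands in 2 lists, as does Sesn2. Some listed genes are counted but not reported here by name. The members and lists were chosen with earlier results of these data known.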

Additional observations from a re-analysis of the deposited data

How the results depend on the processing

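The count of members meeting the size rule upward was 3 with total counts, upper quartile factors, size factors from DESeq2 1.42.0, a prior count of 2, no filter on low counts or a minimum of 5 CPM, the same 3 genes each time. It was 2 without the exon length trend, where Slc7a1 dropped out, and 3 without length and GC trends, where Slc6a9 stood in its place. Members measured were 55 with no filter, 29 at 5 CPM and 32 otherwise. The count upward over all genes was 682 of 12762 with total counts and 495 of 12760 with upper quartile factors. With DESeq2 size factors it was 550 of 12759, and with a prior count of 2 it was 527. No filter gave 757 of 18768, and a minimum of 5 CPM 306 of 10845. Without the length trend it was 423 of 12759. A ratio of at least 2 left 1 of 32 (Slc7a11), against 116 of all 12759 measured genes. A difference of at least 25% gave 6 higher and 6 lower members. Over all 12759 genes it gave 1769 higher and 1727 lower. At a ratio of at least 1.5, the count downward was 0 under TMM scaling with the trends kept. It was 1 with upper quartile factors (Slc7a7), without the length trend or without both trends (Slc43a2 each time). The count downward over all genes was 590 of 12760 with upper quartile factors and 530 of 12759 without the length trend. The members' median log2 ratio ran from -0.06 to 0.07. Scaling by total counts moved all log2 ratios by 0.04. At an adjusted p under 0.01, 6 members rose and 2 fell by the authors' deposited table, and 8 and 3 at one under 0.1. Shares of all genes at these limits were not computed. No call changed direction in these alternatives. Over all genes the removal of both trends gave 372 higher and 400 lower genes, against 540 and 540. Members of few counts, such as Slc7a7 and Slc3a1, are limited by depth, with intervals spanning about 1 log2 unit. No paired analysis was possible because each group has 1 library.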

Other observations

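Of the 32 measured members, 28 had the same direction in the ratio of the 2 libraries and in the authors' deposited table. The 4 others, Slc36a1, Slc36a4, Slc38a6 and Slc38a7, lay between -0.03 and 0.10 in log2 ratio and none passed in the authors' deposited table. The largest distance between the log2 ratio and the authors' deposited log2 fold change was 0.24, for Slc7a4. Each of the 9 members called there pointed the same way in the 2 libraries. The authors' values may include these 2 libraries, so shared directions here are no independent repeat. The 7 that rose summed to 1109 CPM with C2cd4a-GFP and 746 CPM with control-GFP, and the 2 that fell to 246 CPM and 360 CPM in that order, sums that follow from how they were chosen.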
